A study of Homo sapiens with 12 samples.

Results

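The minichromosome maintenance (MCM) helicase genes and the licensing factors that load and activate the helicase were examined in HCC-LM3 and Huh-7 cells with and without METTL5, an enzyme that methylates an adenosine of 18S ribosomal RNA. The 10 genes MCM2, MCM3, MCM4, MCM5, MCM6, MCM7, MCM10, CDC6, CDT1 and CDC45 were taken by symbol from the deposited table of 58884 genes, and each was found and passed the filter on low counts. RNA sequencing was done on 12 libraries in 4 groups of 3: HCC-LM3 METTL5-KO, HCC-LM3 WT, Huh-7 METTL5-KO and Huh-7 WT. Both are human liver cancer lines. The knockout cells of each line had been infected with a guide RNA against METTL5, and the wild-type cells were untreated. The labels name no control guide and no clone, so loss of METTL5 and the guide treatment cannot be told apart, nor can a property of the cells that were picked. No label ties the libraries to separate cultures, and the p-values measure the spread between libraries, which may be technical.

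In a dividing cell, replication origins are licensed before S phase. The origin recognition complex binds DNA, CDC6 and CDT1 join it, and together they load MCM2 to MCM7, which form a hexameric ring in equal numbers, as an inactive double hexamer. At the start of S phase, kinases act on the ring, and CDC45 and the GINS complex bind it to make the active helicase, with MCM10 required for the step that sets it moving. CDT1 is held in check by geminin and by degradation once replication starts, and many of these genes are classical targets of E2F transcription factors, which drive entry into S phase. The MCM proteins are widely used as markers of proliferating cells, in liver tumours as in other tissues.

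Total expected counts ranged from 17495280 to 26415554 per library. METTL5 had 0 counts in all 6 knockout libraries, against 169 to 327 counts in the wild-type libraries. Of 10 hepatocyte markers, 1 reached a mean of 1 CPM (counts scaled to library size, here with TMM factors) in HCC-LM3 of either genotype, with APOB, APOH and TTR at 0, while all 10 did in Huh-7 of either genotype. Summed immune markers reached at most 1.94 CPM in HCC-LM3 and 25.8 CPM in Huh-7. The Huh-7 KO libraries stood apart in make-up: the count-weighted mean gene length was 1710 ± 13.6 bases in Huh-7 KO and 2777 ± 74.2 bases in Huh-7 WT (SD, n = 3 each), and ribosomal protein genes took 15.2 ± 0.239% of the counts in Huh-7 KO and 7.17 ± 0.387% in Huh-7 WT. In HCC-LM3 the mean length was 3165 ± 47.4 bases in KO and 3183 ± 130 bases in WT. The count-weighted mean GC content was 54.3 ± 0.0604% in HCC-LM3 KO and 53.4 ± 0.349% in HCC-LM3 WT, and 56.4 ± 0.0895% in Huh-7 KO and 55.5 ± 0.171% in Huh-7 WT. The first HCC-LM3 WT library also stood apart, with a chi-square per gene of 34.2 and 28.0 against the other WT libraries, which differed from each other by 3.97. Fold changes are given from the fit with trimmed-mean (TMM) scaling and, where it matters, from a fit that adjusts each library for transcript GC content and gene length.

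Levels between genes were compared in TPM, which are scaled by gene length as well as library size. In all 4 groups MCM7 had the highest mean TPM of the 10 genes, MCM2 the second highest and MCM10 the lowest. In HCC-LM3 KO cells MCM7 averaged 348 ± 6.60 TPM and MCM10 averaged 3.30 ± 0.215 TPM. In HCC-LM3 WT cells they averaged 319 ± 10.4 and 5.36 ± 1.09 TPM. In HCC-LM3 WT, MCM4 and MCM3 overlapped in the order of levels and every other pair of neighbours was separate, while in HCC-LM3 KO the levels of MCM3, MCM4 and MCM5 ran into each other. In Huh-7 KO cells MCM7 averaged 232 ± 5.69 TPM, MCM6 0.660 ± 0.195 TPM, CDC6 0.580 ± 0.0458 TPM and MCM10 0.12 to 0.14 TPM. In Huh-7 WT cells the same genes averaged 475 ± 3.59, 7.99 ± 1.10, 8.16 ± 2.03 and 4.26 ± 0.947 TPM (SD, n = 3 throughout). Within the hexamer genes, the highest mean TPM was 352 times the lowest in Huh-7 KO and 59.4 times in Huh-7 WT, against 14.9 times in HCC-LM3 KO and 11.1 times in HCC-LM3 WT. The spread between subunit genes was thus widest in Huh-7 KO cells.

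**Figure D1:**
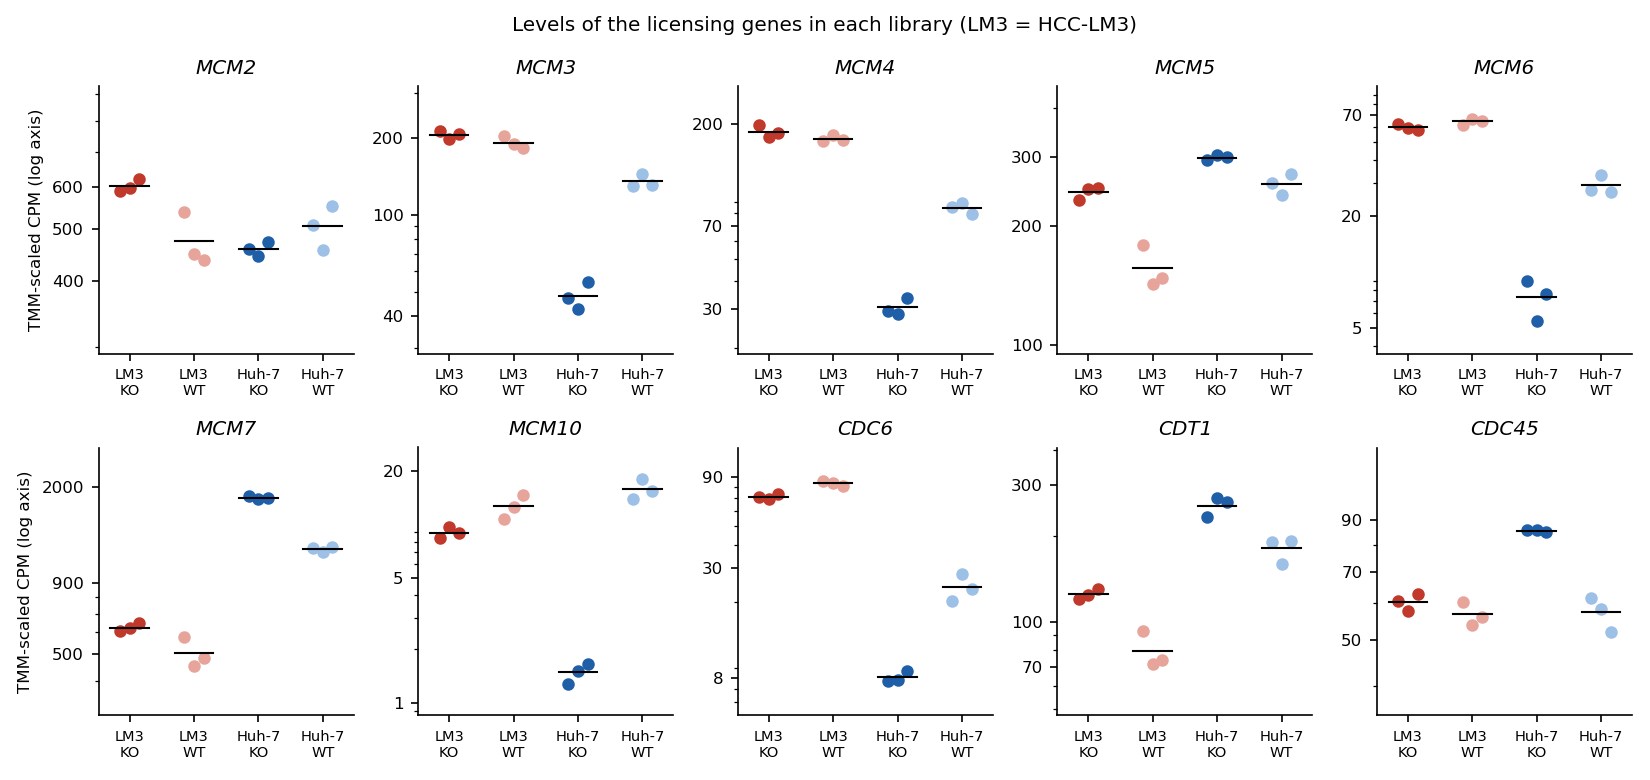
CPM with TMM scaling (log axis, different range in each panel) of the 10 genes in the 12 libraries; points are libraries and bars are group means, with KO to the left of WT in each line. MCM10 lies lower in KO than in WT libraries of both lines, and MCM3, MCM4, MCM6 and CDC6 lie lower in Huh-7 KO than in every other group.

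The start-site regions of 5 genes are shown, picked after their values were seen: MCM3 and MCM6 as subunit genes that were lower, MCM7 and CDT1 as genes that were higher on the TMM scale and MCM10 as the lowest, all in Huh-7 KO. RefSeq promoter windows (GRCh38.p14, from 250 bases before to 50 bases after the start) were used for 8 of the 10 genes. No window of MCM4 or MCM5 was searched. The letters TTTCCCGC, TTTGGCGC, TTTCGCGC and TTTGCCGC, spellings of the E2F motif, were searched on both strands. They occurred in the windows of MCM2, MCM3, MCM6, MCM7, CDC6 and CDT1, 6 of 8 genes, and in those of 3.99% of 27305 symbols (3.31% of 35116 windows). MCM10 and CDC45 held none of them, and MCM7 and CDC45 have 3 windows each, of which 1 of MCM7 held the letters. CCAAT was found in 6 of the 8 genes and 39.7% of all symbols, and TTTGAA in 0 of the 8 and 18.2% of all symbols. The stretches shown run from 250 bases before the start to 10 after it, read along the gene, with the E2F-type letters of either strand in capitals. MCM3 (minus strand, chr6:52284733-52284992) carries them at -174 to -167 and across the start, and MCM6 (minus strand, chr2:135876434-135876693) carries them as 2 runs, each a pair of overlapping matches on opposite strands. MCM7 (minus strand, chr7:100101388-100101647) has them at -187 to -180 and -9 to -2, and CDT1 (plus strand, chr16:88803539-88803798) at -35 to -28. MCM10 (plus strand, chr10:13161308-13161567) is shown without a match.
MCM3: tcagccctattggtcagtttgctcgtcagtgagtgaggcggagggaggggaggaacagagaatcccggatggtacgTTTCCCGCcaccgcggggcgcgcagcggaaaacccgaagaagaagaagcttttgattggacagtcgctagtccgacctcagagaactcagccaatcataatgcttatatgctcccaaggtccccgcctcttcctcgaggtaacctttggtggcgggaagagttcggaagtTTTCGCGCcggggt
MCM6: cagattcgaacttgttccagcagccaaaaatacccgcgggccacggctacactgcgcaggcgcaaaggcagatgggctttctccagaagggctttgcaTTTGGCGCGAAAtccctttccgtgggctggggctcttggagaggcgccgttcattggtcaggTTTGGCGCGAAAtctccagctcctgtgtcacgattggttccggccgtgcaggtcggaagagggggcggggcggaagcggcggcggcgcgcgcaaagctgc
MCM7: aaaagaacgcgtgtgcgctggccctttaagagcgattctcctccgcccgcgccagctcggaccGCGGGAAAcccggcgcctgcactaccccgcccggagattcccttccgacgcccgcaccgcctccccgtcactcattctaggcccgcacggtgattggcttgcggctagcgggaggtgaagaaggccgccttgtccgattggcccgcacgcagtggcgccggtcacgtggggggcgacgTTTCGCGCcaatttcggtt
CDT1: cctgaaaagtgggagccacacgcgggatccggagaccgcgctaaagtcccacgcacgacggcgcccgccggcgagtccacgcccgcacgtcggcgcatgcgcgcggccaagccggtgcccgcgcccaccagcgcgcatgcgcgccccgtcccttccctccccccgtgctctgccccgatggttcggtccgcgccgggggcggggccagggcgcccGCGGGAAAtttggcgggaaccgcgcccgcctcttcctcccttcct
MCM10: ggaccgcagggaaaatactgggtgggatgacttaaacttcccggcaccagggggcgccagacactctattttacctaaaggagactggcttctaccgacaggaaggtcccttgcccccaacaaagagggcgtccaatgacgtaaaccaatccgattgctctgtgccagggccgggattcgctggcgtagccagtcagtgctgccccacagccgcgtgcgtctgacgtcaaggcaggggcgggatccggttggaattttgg
A match describes letters only, and its absence says nothing of a factor. Of the genes printed with a match, MCM3 and MCM6 were picked as lower and MCM7 and CDT1 as higher in Huh-7 KO in the TMM-scaled fit. Their split by direction was set by that choice. Of the genes with a match that are not printed, CDC6 was lower and MCM2 was not called in that fit.

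In HCC-LM3, knockout cells had more MCM5 and CDT1 transcript and less MCM10 than wild-type cells, with smaller increases of MCM2 and MCM7. Of the 10 genes, 4 were higher (MCM2, MCM5, MCM7 and CDT1), 1 was lower (MCM10) and 5 were not called at an adjusted p under 0.05 (edgeR quasi-likelihood test, Benjamini-Hochberg over 16537 genes), where 26.8% of all genes tested were called, 14.0% as higher and 12.9% as lower. The median log2 fold change of the 10 genes was 0.11, beside 0.00 over all genes tested. Under the GC and length adjustment MCM5 and CDT1 remained higher and MCM10 lower, where 17.6% of all genes were called (8.81% higher and 8.75% lower), and MCM2 and MCM7 were no longer called. Bulk RNA does not separate a change in the number of cells preparing for or passing through S phase from a change of transcript per cell.

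MCM5 (chr22:35400063-35425430 on GRCh38, plus strand) encodes a ring subunit beside the gate through which DNA enters. It had 233, 249 and 250.01 CPM in HCC-LM3 KO cells, against 179, 142 and 148 CPM in HCC-LM3 WT cells. The groups did not overlap, as for 20.5% of all genes tested in that direction, and the log2 fold change was 0.64 ± 0.10 (SE; adjusted p = 1.2e-05). It was 0.44 with the GC and length adjustment and was called higher in 23 of 23 alternative settings. CDT1 (chr16:88803213-88809258, plus strand), the loading factor whose activity geminin restrains, had 121, 124 and 130.4 CPM in HCC-LM3 KO cells and 93.3, 71.3 and 73.7 CPM in HCC-LM3 WT cells. Every KO library was above every WT library. The log2 fold change was 0.66 ± 0.10 (adjusted p = 2.29e-05), or 0.37 with the adjustment, and it was called in 23 of 23 alternatives. Without the first WT library, the one nearest to the knockout level in both genes, the log2 fold changes were 0.74 for MCM5 and 0.78 for CDT1.

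MCM10 (chr10:13161554-13211104, plus strand), the activation factor, was the one gene of the set called lower in HCC-LM3 KO. Its levels were 8.33, 9.69 and 8.90 CPM in HCC-LM3 KO cells, from 281, 281 and 298 counts, against 10.7, 12.5 and 14.6 CPM in HCC-LM3 WT cells, from 338, 478 and 478 counts. No KO library reached the lowest WT library, as for 18.2% of all genes tested in that direction. The log2 fold change was -0.49 ± 0.14 (SE; adjusted p = 0.00821), and -0.39 with the GC and length adjustment. It was called in 22 of 23 alternatives. The exception was leaving out the third WT library, with a log2 fold change of -0.38 and an adjusted p of 0.0796. Without the first WT library it was -0.60.

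MCM2 (chr3:127598223-127622436, plus strand) and MCM7 (chr7:100092728-100101940, minus strand), the most abundant subunit transcripts, showed smaller differences. MCM2 had 592, 597 and 621 CPM in HCC-LM3 KO cells and 539, 449.5 and 438 CPM in HCC-LM3 WT cells. MCM7 had 603, 622 and 645 CPM in HCC-LM3 KO cells and 577, 453 and 482 CPM in HCC-LM3 WT cells. Neither gene overlapped between the groups, but the first WT library lay close to the KO range in both. The log2 fold change was 0.34 ± 0.10 for MCM2 (adjusted p = 0.00991) and 0.31 ± 0.10 for MCM7 (adjusted p = 0.0201). With the GC and length adjustment both missed the threshold, at 0.15 for MCM2 (adjusted p = 0.114) and 0.14 for MCM7 (adjusted p = 0.154). The MCM2 call also ended on leaving out the third KO library (adjusted p = 0.0513), the second WT library (0.0643) or the third (0.0791), and the MCM7 call on leaving out any 1 of those or of the other KO libraries (0.0583 to 0.158). In log2(TPM + 0.5) the MCM2 call was lost too (0.0655), as was the MCM7 call with library totals alone (0.0522). Without the first WT library they were 0.44 for MCM2 and 0.41 for MCM7, both called. Both genes overlap others on the opposite strand, MCM2 with TPRA1 and AC023593.1 and MCM7 with AP4M1, and MCM7 also hosts the microRNA genes MIR25, MIR93 and MIR106B. The strand setting of the counting is not given in the sources used here, so reads of these pairs cannot be told apart.

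The remaining 5 genes were not called in HCC-LM3. CDC6 (chr17:40287633-40304657, plus strand), the ATPase that recruits the ring to the origin, had 71.0, 69.5 and 73.4 CPM in HCC-LM3 KO cells and 85.9, 84.1 and 81.3 CPM in HCC-LM3 WT cells. The groups did not overlap, but the log2 fold change of -0.23 ± 0.10 (SE) missed the threshold (adjusted p = 0.0679) and was called lower in 4 of 23 alternatives. The subunits MCM3 (chr6:52264009-52284881, minus strand), MCM4 and MCM6 (chr2:135839626-135876426, minus strand) and the activator CDC45 (chr22:19479459-19520612, plus strand) overlapped between KO and WT. MCM3 ranged from 199 to 213 CPM in HCC-LM3 KO and from 182 to 203 CPM in HCC-LM3 WT, and MCM4 from 175 to 197 CPM in KO and from 167 to 178 CPM in WT. MCM6 ranged from 57.9 to 62.3 CPM in HCC-LM3 KO and from 61.9 to 66.7 CPM in HCC-LM3 WT, and CDC45 from 57.6 to 62.7 CPM in KO and from 54.0 to 60.5 CPM in WT. Their log2 fold changes were 0.11 for MCM3, 0.11 for MCM4, -0.11 for MCM6 and 0.087 for CDC45, with adjusted p from 0.411 to 0.516. None was called in any alternative, and each changed sign in 2 of 23.

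In Huh-7, the 10 log2 fold changes spanned 4.02 between the lowest and the highest, against 1.15 in HCC-LM3. MCM10, MCM6, CDC6, MCM3 and MCM4 were lower in Huh-7 KO than in Huh-7 WT cells, with log2 fold changes of -3.41 to -1.47, while MCM7, CDC45, CDT1 and MCM5 were higher by 0.22 to 0.61 on the TMM scale and MCM2 was not called. The 5 lower and 4 higher calls stand beside 43.2% of all genes tested called lower and 31.7% called higher, 75.0% in all. The median log2 fold change of the 10 genes was -0.81, beside -0.30 over all genes tested. With the GC and length adjustment it was 0.0091, beside 0.086 over all genes. In that fit 4 of the 10 were called higher and 4 lower, where 34.8% of all genes were called higher and 24.2% lower. The 4 increases depend on the scaling: with library totals alone, which moved the median of all genes to -1.40, and in TPM, which moved it to -0.89, all 10 genes were called lower, as were 65.3% and 70.4% of all genes (12.1% and 5.10% were called higher, 77.3% and 75.5% in all). The falls of MCM3, MCM4, MCM6 and MCM10 were called in 23 of 23 alternatives.

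MCM10 was scarce in the Huh-7 KO libraries. It had 13, 13 and 15 counts there, or 1.28, 1.51 and 1.65 CPM, against 377, 410 and 303 counts, or 13.8, 17.95 and 15.3 CPM, in Huh-7 WT cells. The lowest WT library was far above the highest KO library, and no overlap in this direction was seen for 44.2% of all genes tested. The log2 fold change was -3.41 ± 0.21 (SE; adjusted p = 7.08e-16) and -2.39 with the GC and length adjustment, under which 58.9% of all genes were called, 34.8% higher and 24.2% lower. MCM10 was the one gene of the set called lower in both lines, and its fall was 2.92 log2 units larger in Huh-7 than in HCC-LM3.

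The ring subunits MCM3, MCM4 and MCM6 fell with it. MCM3 had 47.1, 42.9 and 54.7 CPM in Huh-7 KO cells, against 129.7, 145 and 130.4 CPM in Huh-7 WT cells. MCM4 had 29.2, 28.4 and 33.6 CPM in Huh-7 KO cells, against 85.3, 89.1 and 79.2 CPM in Huh-7 WT cells. MCM6 had 8.97, 5.48 and 7.58 CPM in Huh-7 KO cells, from 91, 47 and 69 counts, against 27.6, 33.4 and 27.0 CPM in Huh-7 WT cells. None of the 3 genes overlapped between KO and WT. The log2 fold changes were -1.48 ± 0.10 for MCM3 (adjusted p = 5.94e-15), -1.47 ± 0.10 for MCM4 (adjusted p = 6.58e-15) and -1.99 ± 0.14 for MCM6 (adjusted p = 7.96e-15). With the GC and length adjustment they were smaller, at -0.99 for MCM3, -0.62 for MCM4 and -0.35 for MCM6, and still called.

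CDC6 gave a different result in the 2 fits. It had 7.69, 7.81 and 8.68 CPM in Huh-7 KO cells, from 78, 67 and 79 counts, against 20.3, 27.9 and 23.6 CPM in Huh-7 WT cells. The groups were separate, and the log2 fold change was -1.57 ± 0.13 (SE; adjusted p = 7.32e-13). With the GC and length adjustment it was 0.076 ± 0.14 and not called (adjusted p = 0.668). CDC6 has the longest deposited gene length of the 10, at 4564 bases, and the second lowest transcript GC content, at 45.3%.

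On the TMM scale, MCM7, CDC45, CDT1 and MCM5 had higher CPM in Huh-7 KO than in Huh-7 WT libraries. The TMM factors behind this scale were 0.491 to 0.510 in Huh-7 KO and 1.06 to 1.10 in Huh-7 WT. MCM7 had 1847, 1808 and 1828 CPM in Huh-7 KO cells, against 1208, 1169.5 and 1215 CPM in Huh-7 WT cells. Its log2 fold change was 0.61 ± 0.10 (SE; edgeR adjusted p = 1.48e-06). CDC45 had 85.8, 85.8 and 84.95 CPM in Huh-7 KO cells, against 61.6, 58.4 and 52.1 CPM in Huh-7 WT cells, and changed by 0.57 ± 0.09 (adjusted p = 1.16e-06). CDT1 had 233, 271 and 262 CPM in Huh-7 KO cells, against 191, 160.3 and 193 CPM in Huh-7 WT cells, and changed by 0.49 ± 0.10 (adjusted p = 6.42e-05). For these genes every KO library lay above every WT library on this scale, as for 32.3% of all genes tested, but with library totals alone the log2 fold changes were -0.50 for MCM7, -0.54 for CDC45 and -0.61 for CDT1. With the GC and length adjustment they were 0.59, 0.52 and 0.17, and the CDT1 call was lost when a replicate block was added to it (adjusted p = 0.0513). MCM5 had 294, 303 and 300.1 CPM in Huh-7 KO cells and 258, 239.7 and 272 CPM in Huh-7 WT cells, a log2 fold change of 0.22 ± 0.10 (adjusted p = 0.0371) that reached -0.89 with library totals alone. The MCM5 call was also lost on leaving out any 1 Huh-7 KO library (adjusted p 0.0658 to 0.0924), the first or second Huh-7 WT library (0.0883 and 0.0602) or the third HCC-LM3 KO library (0.0522), and with no filter on low counts (0.510). MCM2 had 458, 445 and 473 CPM in Huh-7 KO cells and 509, 457 and 554 CPM in Huh-7 WT cells, which overlapped, with a log2 fold change of -0.14 ± 0.10 (adjusted p = 0.197). It was called higher in 2 and lower in 3 of 23 alternatives.

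**Figure D2:**
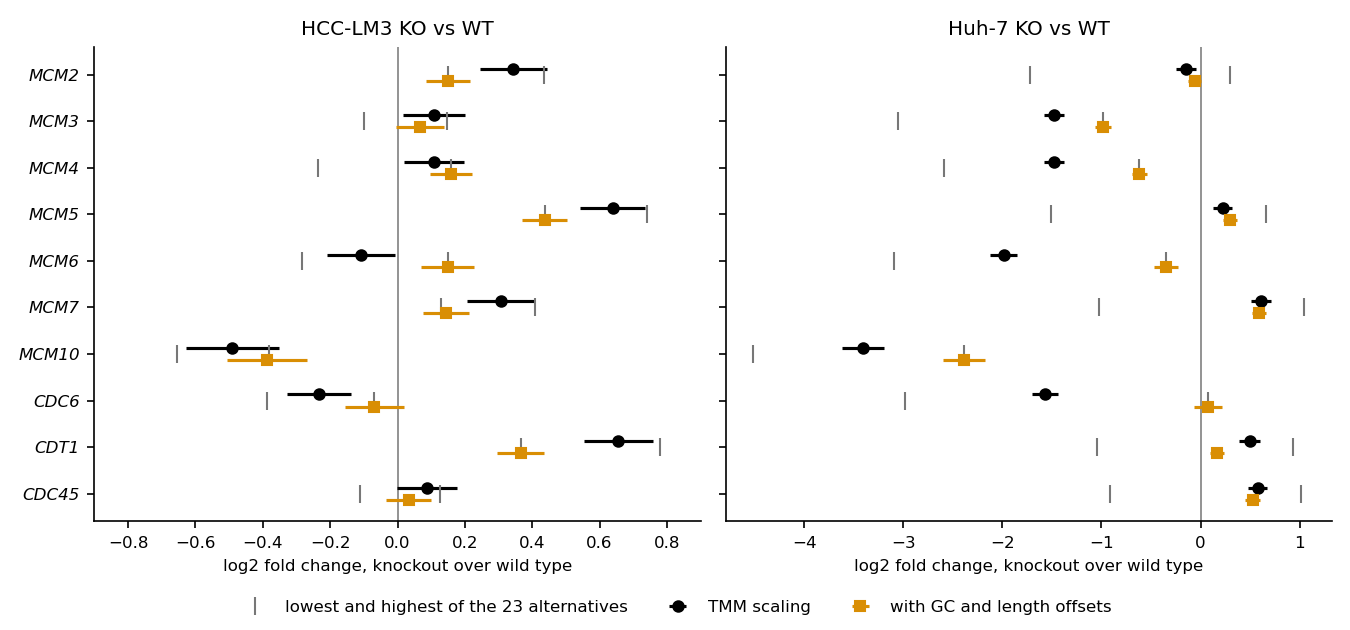
Log2 fold change (knockout over wild type) of each gene in HCC-LM3 and Huh-7, with different ranges on the horizontal axes; circles are the TMM-scaled fit and squares the fit with GC and length offsets, bars are standard errors, and grey ticks mark the lowest and highest value over 23 alternatives. MCM10 lies below 0 in both lines in every fit, and the grey ticks of MCM5, MCM7, CDT1 and CDC45 in Huh-7 lie on both sides of 0.

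Ratios within a library do not depend on its scaling, although they still carry its GC and length gradients, and they were read as counts of each gene per 100 counts of MCM7. In Huh-7, MCM3 stood at 2.64 ± 0.320 in KO and 11.3 ± 0.956 in WT, MCM6 at 0.401 ± 0.0921 in KO and 2.46 ± 0.351 in WT, and MCM10 at 0.0811 ± 0.0107 in KO and 1.31 ± 0.201 in WT (SD, n = 3 each). MCM5 stood at 16.4 ± 0.427 in Huh-7 KO and 21.4 ± 0.933 in Huh-7 WT, lower in every KO library although its TMM-scaled level was called higher. CDT1 at 14.0 ± 1.23 in KO and 15.1 ± 1.22 in WT, and CDC45 at 4.68 ± 0.0571 in KO and 4.79 ± 0.442 in WT, overlapped between the Huh-7 groups. In HCC-LM3, MCM5 stood at 39.1 ± 0.774 in KO and 31.1 ± 0.372 in WT, CDT1 at 20.1 ± 0.132 in KO and 15.7 ± 0.440 in WT, and CDC6 at 11.4 ± 0.302 in KO and 16.8 ± 1.85 in WT. Relative to MCM7, then, MCM5 and CDT1 were higher in every HCC-LM3 KO library than in every HCC-LM3 WT library. CDC6, MCM6, MCM10 and CDC45 were lower in every HCC-LM3 KO library than in every HCC-LM3 WT library. MCM2, MCM3, MCM4, MCM5, MCM6, MCM10 and CDC6 were lower in every Huh-7 KO library than in every Huh-7 WT library. How many of all genes separate in this ratio was not counted.

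The 6 ring subunits enter the hexamer in equal numbers, and their shares of the summed MCM2 to MCM7 TPM give the transcript balance per length. The sum was 969 ± 27.1 TPM in HCC-LM3 KO and 916 ± 29.9 TPM in HCC-LM3 WT, and 318 ± 7.51 TPM in Huh-7 KO and 798 ± 11.7 TPM in Huh-7 WT (SD, n = 3 each). In Huh-7, MCM7 made up 73.0 ± 0.586% of the sum in KO and 59.5 ± 0.543% in WT, a difference of 13.5 percentage points. MCM2 made up 14.4 ± 0.160% in Huh-7 KO and 19.1 ± 1.34% in Huh-7 WT, and MCM3 1.70 ± 0.246% in Huh-7 KO and 6.07 ± 0.575% in Huh-7 WT. MCM4, MCM5 and MCM6 also had smaller shares in Huh-7 KO, with no overlap between the groups for any of the 6 subunits. The 6 shares are parts of the same sum, so the larger share of MCM7 goes with smaller shares elsewhere. They are not 6 separate results. In shares of summed counts, MCM5 overlapped between the Huh-7 groups. In HCC-LM3, MCM5 made up 11.02 ± 0.536% in KO and 8.43 ± 0.563% in WT, MCM3 11.8 ± 0.338% in KO and 13.4 ± 0.320% in WT, and MCM6 2.42 ± 0.109% in KO and 3.13 ± 0.348% in WT. MCM7 at 35.9 ± 1.21% in KO and 34.8 ± 1.75% in WT overlapped between the HCC-LM3 groups (exact permutation p = 0.6), as did MCM4 (exact permutation p = 0.2). For the other 10 shares the exact two-sided permutation test gave p = 0.1, the smallest that 3 against 3 libraries allows, and 0.12 after Benjamini-Hochberg adjustment over the 12 shares, so none passed.

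**Figure D3:**
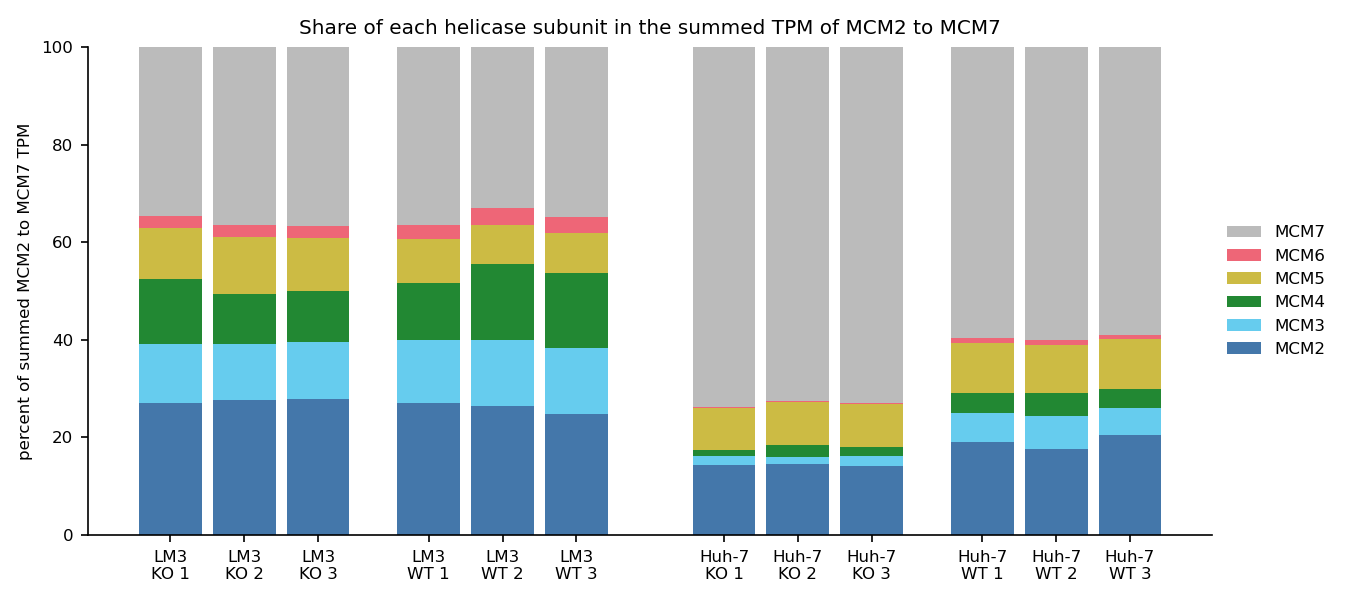
Share of each of MCM2 to MCM7 in their summed TPM (percent) in each library, KO to the left of WT in each line (LM3 is HCC-LM3). MCM7 takes 73.0% on average in Huh-7 KO and 59.5% in Huh-7 WT libraries, and 35.9% in HCC-LM3 KO and 34.8% in HCC-LM3 WT libraries.

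The fold changes of the 10 genes ran along with the GC content of their transcripts. Across the 10 genes, as a description, Pearson's r between log2 fold change and median transcript GC content was 0.88 in HCC-LM3 and 0.76 in Huh-7, and 0.64 and 0.44 after the GC and length adjustment. The genes share libraries and are not independent. All genes tested showed such a gradient: genes of 40 to 45% GC, the class of MCM6, had a median log2 fold change of -0.28 in HCC-LM3 and -1.59 in Huh-7, and genes of 55 to 60% GC, the class of MCM2, MCM5 and MCM7, had 0.20 in HCC-LM3 and 0.49 in Huh-7. In HCC-LM3, 7 of the 10 genes lay within the middle 50% of their GC class, MCM5 and CDT1 lay above it and MCM10 lay below it. In Huh-7, 8 of the 10 lay within it and MCM10 and MCM3 lay below it. Whether the GC content and length gradients of these libraries are part of the differences in the 10 genes was not tested beyond the adjusted fit.

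**Figure D4:**
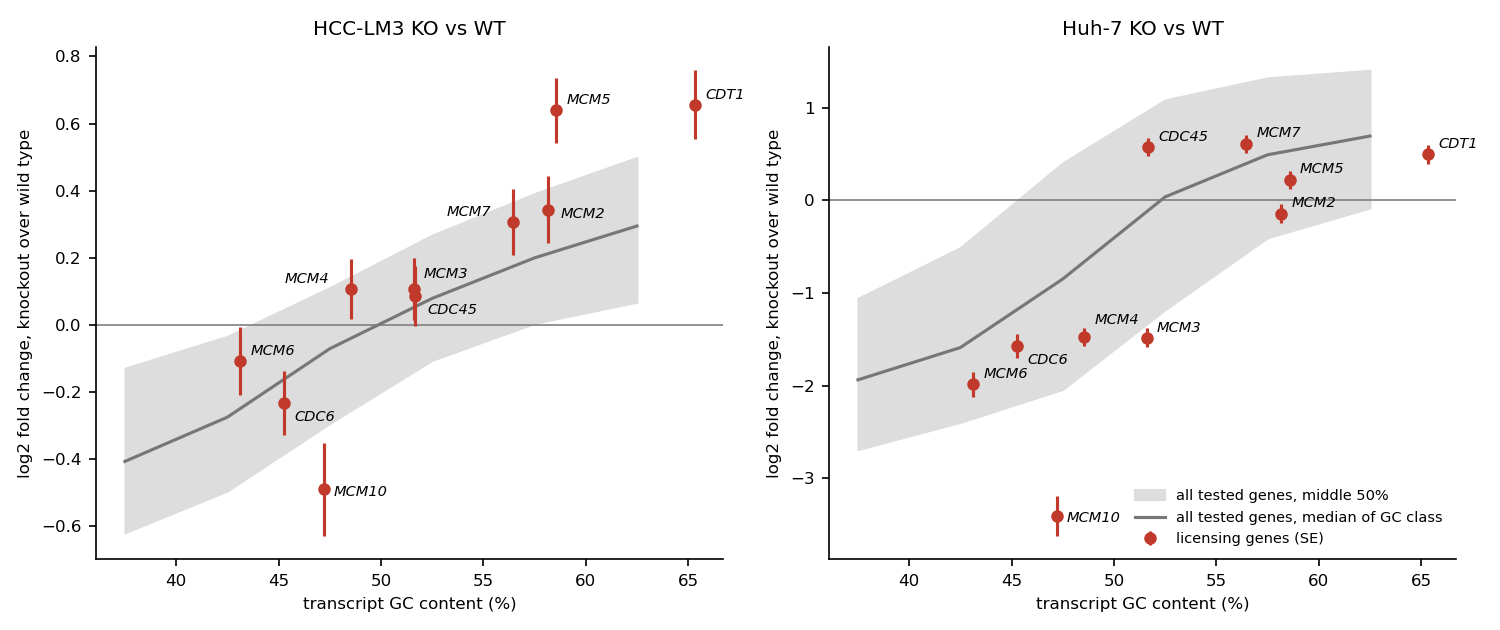
Log2 fold change (knockout over wild type) against median transcript GC content (percent) in each line; red points are the 10 genes with standard errors, the grey line joins the medians of all tested genes by GC class and the band holds the middle 50% of each class. MCM10 lies below the band in both lines, MCM3 below it in Huh-7, and MCM5 and CDT1 above it in HCC-LM3 (CDT1 is plotted beyond the last class mark, at 65.3% GC).

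The knockout effects of the lines were compared directly as an interaction in the same fit. The effect in HCC-LM3 less that in Huh-7 was above 0 for 7 of the 10 genes and below 0 for CDC45, where 61.6% of all genes tested were called, 37.7% above and 23.9% below 0. The difference was 2.92 ± 0.26 (SE) for MCM10, 1.88 ± 0.17 for MCM6, 1.59 ± 0.14 for MCM3, 1.58 ± 0.13 for MCM4 and 1.34 ± 0.16 for CDC6. Those of MCM2 and MCM5 were smaller, at 0.49 ± 0.14 and 0.42 ± 0.14, and that of CDC45 was -0.49 ± 0.13. The median difference over all genes tested was itself 0.39, and MCM2 and MCM5 lay only 0.092 and 0.022 above it. MCM7 at -0.30 ± 0.14 (adjusted p = 0.0593) and CDT1 at 0.16 ± 0.15 (adjusted p = 0.356) were not called. The differences of MCM3, MCM4, MCM6 and MCM10 were called in 22 of 22 alternatives, but with the GC and length adjustment they were 1.05 for MCM3, 0.78 for MCM4, 0.50 for MCM6 and 2.002 for MCM10. In that fit 48.7% of all genes were called, 20.3% above and 28.4% below 0. The difference of CDC6 was -0.14 there, and those of MCM2 and MCM5 were 0.21 and 0.14, none of them called, while that of MCM7 was -0.45 and called. With DESeq2 size factors the differences of MCM2 and MCM5 were 0.071 and 0.00019, neither called. That of MCM5 was also not called on leaving out the second HCC-LM3 KO library (adjusted p = 0.0577) or the second or the third HCC-LM3 WT library (0.0815 and 0.0561). With library totals alone and in TPM, the difference of CDC45 was 0.47 and 0.80, called above 0 in both.

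The wild-type lines themselves differed in these genes. HCC-LM3 WT cells had more CDC6, MCM6, MCM4 and MCM3 than Huh-7 WT cells, with log2 fold changes of 1.81 ± 0.10 (SE), 1.14 ± 0.11, 1.02 ± 0.09 and 0.50 ± 0.09. They had less MCM7, CDT1, MCM5 and MCM10, at -1.25 ± 0.10, -1.19 ± 0.10, -0.71 ± 0.10 and -0.32 ± 0.14. MCM2 and CDC45 were not called, at -0.091 and -0.015, but were called higher in 4 and 2 of 23 alternatives, and 82.8% of all genes tested were called in this comparison, 41.8% as higher and 41.0% as lower. The MCM10 groups overlapped, its difference was called in 12 of 23 alternatives, and it changed sign with library totals alone (0.11) and in TPM (0.30), uncalled in both. Under the GC and length adjustment CDC6 was 1.37, MCM6 0.81, MCM4 0.68 and MCM3 0.41, and MCM7 was -0.98, MCM10 -0.70, CDT1 -0.62 and MCM5 -0.43, all called, with MCM2 called higher at 0.18 (adjusted p = 0.0136). In TPM, MCM5 was -0.070 and not called. This comparison shares its wild-type libraries with the knockout comparisons, and its values are given beside them without a measure of likeness.

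The genes that act before, on and after the helicase were followed through lists of the pathway. The counts of every list stand beside 14.0% higher and 12.9% lower over all genes tested in HCC-LM3 KO, and 31.7% higher and 43.2% lower in Huh-7 KO. Under the GC and length adjustment these shares were 8.81% and 8.75% in HCC-LM3 KO, and 34.8% and 24.2% in Huh-7 KO. The medians over all genes were 0.00 in HCC-LM3 and -0.30 in Huh-7, and 0.00 and 0.086 with the adjustment. In the origin recognition list, which recruits the loading factors, 1 of 7 genes was higher and 3 were lower in HCC-LM3 KO, and 1 was higher and 6 were lower in Huh-7 KO. The median log2 fold change was -0.33 in HCC-LM3 and -0.98 in Huh-7, and -0.025 and -0.069 with the adjustment. In HCC-LM3 KO the log2 fold changes were -0.86 for ORC3, -0.65 for ORC4 and -0.55 for ORC2, and 0.27 for LRWD1, a partner of the complex. In Huh-7 KO they were -2.04 for ORC4, -1.92 for ORC2, -1.36 for ORC5 and 1.02 for LRWD1. After the GC and length adjustment ORC3 was the gene of the list still called in HCC-LM3, and there were 2 higher and 2 lower in Huh-7, where ORC4 was higher, at 0.44, and LRWD1 remained higher, at 0.43. LRWD1 was -0.089 in Huh-7 with library totals alone.

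Among the inhibitors of licensing and the turnover machinery, 3 of 11 genes were higher and 6 lower in HCC-LM3 KO, and 1 was higher and 8 lower in Huh-7 KO. The medians were -0.25 in HCC-LM3 and -0.60 in Huh-7. GMNN, which encodes geminin, had 15.2 ± 1.11 CPM in HCC-LM3 KO and 24.4 ± 1.32 CPM in HCC-LM3 WT cells (SD, n = 3 each), a log2 fold change of -0.69 that was -0.37 and still called with the GC and length adjustment. CUL4B, a scaffold of the ubiquitin ligase family that degrades CDT1, had -0.82 in HCC-LM3 KO and -1.64 in Huh-7 KO. DTL, the receptor that brings CDT1 to that ligase, had -1.73 in Huh-7 KO and was 0.16 and not called there after the adjustment, under which CUL4B was 0.057 and not called in Huh-7. FZR1, an activator of the anaphase-promoting complex, rose by 0.46 in HCC-LM3 KO and missed the threshold after the adjustment. Higher CDT1 stood beside lower GMNN in HCC-LM3 KO, and a link between them was not tested. With the adjustment 1 gene of the list was higher and 4 lower in HCC-LM3, and 3 were higher and 3 lower in Huh-7, with medians of -0.13 and 0.057.

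Of the other MCM proteins and partners of the ring, 1 of 7 genes was higher and 2 were lower in HCC-LM3 KO, and 7 of 7 were lower in Huh-7 KO, with medians of -0.18 and -1.76. MCM8 and MCM9, which form a helicase of recombination repair, had log2 fold changes of -4.29 and -3.32 in Huh-7 KO. MCM8 averaged 0.570 ± 0.211 CPM in Huh-7 KO and 11.3 ± 1.90 CPM in Huh-7 WT (SD, n = 3 each). NASP, a histone chaperone, had -2.09 in Huh-7 KO and -0.33 in HCC-LM3 KO, the second not called after the adjustment. KAT7, a histone acetyltransferase that assists MCM loading, rose by 0.29 in HCC-LM3 KO. In Huh-7 KO it had -1.76, but the GC and length adjustment turned it to 0.48, called higher. With that adjustment 1 gene of the list was higher and 1 lower in HCC-LM3 (median 0.0037), and 2 were higher and 4 lower in Huh-7 (median -0.81), where MCM8, at -2.54, MCM9, at -1.57, and NASP, at -0.98, were among the lower.

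In the list of helicase activation and fork coupling, 2 of 16 genes were higher and 7 lower in HCC-LM3 KO, and 1 was higher and 14 lower in Huh-7 KO, with medians of -0.12 and -1.69. Both parts of the kinase that triggers the loaded ring fell in HCC-LM3 KO, with -0.84 for CDC7 and -0.74 for DBF4, and both remained called after the GC and length adjustment. CLSPN and TOPBP1, a fork protein and an assembly factor, had -3.11 and -2.97 in Huh-7 KO, and -0.79 and -0.80 after the adjustment. CDC7 had -2.64 and MTBP, which helps recruit CDC45, had -2.65 in Huh-7 KO. After the adjustment the list held 1 higher and 3 lower in HCC-LM3 and 2 higher and 9 lower in Huh-7, with medians of -0.18 and -0.40.

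Of the replicative polymerases, the clamp and its loader, 4 of 24 genes were higher and 5 lower in HCC-LM3 KO, and 5 were higher and 13 lower in Huh-7 KO, with medians of -0.081 and -0.35. POLD1, the catalytic subunit of polymerase delta, rose by 0.67, and LIG1, the ligase of lagging strand fragments, rose by 0.61 in HCC-LM3 KO, both called in 23 of 23 alternatives. In Huh-7 KO the small subunits RPA3 and POLE4 rose by 2.21 and 2.13, which held in 23 of 23 alternatives, while POLD3, another subunit of polymerase delta, had -3.03. POLA1 and DNA2, a polymerase alpha subunit and a nuclease, had -0.51 and -0.66 in HCC-LM3 KO and missed the threshold after the adjustment. With the adjustment 5 genes of the list were higher and 1 lower in HCC-LM3 (median 0.079), and 9 were higher and 9 lower in Huh-7 (median 0.010).

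Among G1/S regulators and E2F genes, 6 of 25 were higher and 7 lower in HCC-LM3 KO, and 5 were higher and 16 lower in Huh-7 KO, with medians of -0.043 and -1.12. E2F2, an activating E2F, rose by 0.67 in HCC-LM3 KO, while E2F7, a repressing one, had -0.62 and RBL2, a pocket protein that restrains E2F, had -1.15, each called in 23 of 23 alternatives. In Huh-7 KO the log2 fold changes were -3.12 for CDK6, -2.88 for RB1, -2.63 for RBL2 and -2.56 for RBL1. After the adjustment CDK6 and RB1 remained lower there, at -1.10 and -0.77, and RBL1 and RBL2 were not called. The list then held 4 higher and 7 lower in HCC-LM3 (median -0.041) and 8 higher and 10 lower in Huh-7 (median -0.20). In the nucleotide supply list, 2 of 9 genes were higher and 3 lower in HCC-LM3 KO, and 1 was higher and 6 lower in Huh-7 KO, with medians of -0.17 and -0.79. RRM1, the large subunit of ribonucleotide reductase, had -2.80 in Huh-7 KO and -0.38 in HCC-LM3 KO, while TK1, thymidine kinase, rose by 1.40 in Huh-7 KO and by 0.33 in HCC-LM3 KO. After the adjustment the HCC-LM3 values of RRM1 and TK1 missed the threshold. The list then held 1 higher and 2 lower in HCC-LM3 (median 0.047) and 3 higher and 3 lower in Huh-7 (median 0.28).

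In the G2 and mitosis list, 6 of 14 genes were lower and the others were not called in HCC-LM3 KO, and 6 were higher and 6 lower in Huh-7 KO, with medians of -0.16 and -0.057. BUB1, a spindle checkpoint kinase, had -0.86 and CDK1, the mitotic kinase, -0.66 in HCC-LM3 KO. MKI67, the proliferation antigen, had -3.05 in Huh-7 KO, and TPX2, a spindle factor, -1.73. Both are among the 6 lower there, and the 6 higher are given as a count only. The Huh-7 median of the list lay above the -0.30 of all genes tested. With the GC and length adjustment TOP2A, at -1.59 in Huh-7, reversed to 0.74 and was called higher, and the list held 8 higher and 3 lower in Huh-7 (median 0.22) and 5 lower in HCC-LM3 (median -0.17). The part that a change in cell cycle phase has in the values of the 10 genes was not tested.

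**Figure D5:**
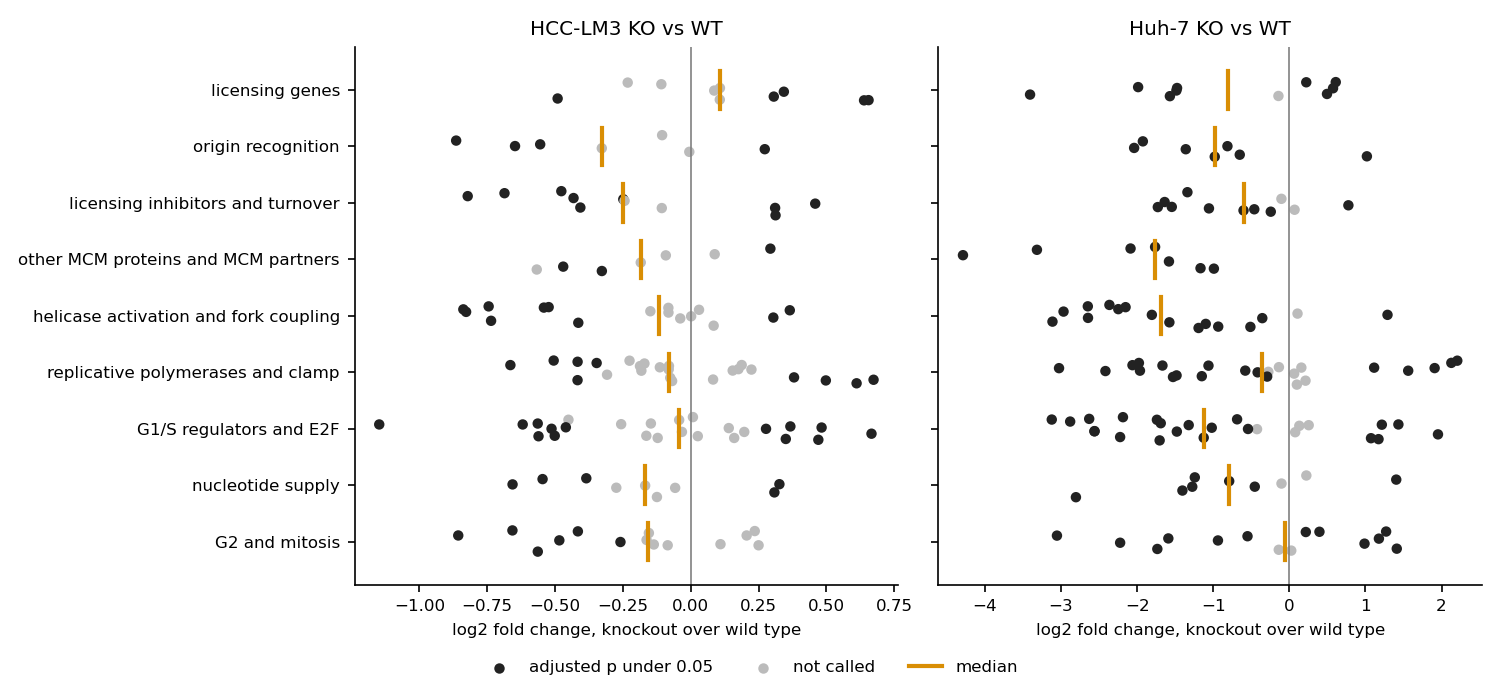
Log2 fold change (knockout over wild type) of each tested gene of the 9 lists in HCC-LM3 and Huh-7; black points have an adjusted p under 0.05, grey points do not, and the orange bar is the list median (vertical scatter within a list has no meaning). In this TMM-scaled fit the licensing genes have a median of 0.11 in HCC-LM3 and -0.81 in Huh-7 (0.15 and 0.0091 with the GC and length adjustment, not drawn). Every gene of the list of other MCM proteins lies below 0 in Huh-7.

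The mean profile of MCM2 to MCM7 over the 12 libraries was matched most closely, among 9927 other genes averaging 5 CPM or more, by DCTN1, a dynactin subunit, with Pearson's r of 0.996. SF3B3, a splicing factor, and CASC3, a component of the exon junction complex, followed with 0.992 and 0.991. TCF20, STK24, PPP1R9B, TIMELESS and PRRC2B had 0.990, 0.990, 0.988, 0.987 and 0.987. TIMELESS, a fork protection factor, belongs to the helicase activation list. DCTN1 averaged 229 CPM in HCC-LM3 KO, 181 CPM in HCC-LM3 WT, 85.6 CPM in Huh-7 KO and 157 CPM in Huh-7 WT. These correlations describe 12 libraries in 4 groups that differ in make-up, and carry no p. The subunit genes did not share a profile: Pearson's r was 0.985 between MCM3 and MCM4 but -0.953 between MCM4 and MCM7. A gene that matches the mean profile therefore need not resemble any subunit gene.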

How the data were processed

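RNA-seq libraries of HCC-LM3 and Huh-7 cells were grouped by line and genotype from the sample labels, with TRIzol RNA per the labels' protocols. Per the file headers, each gene and library has an expected count, before any normalization, and a TPM value, both made by the authors, beside a deposited gene length. The deposited TPM values are length-scaled and sum to 977632 to 998831 per library. Per the submitters' processing notes, mm8 and mm9, which are mouse builds, and Bowtie 0.12.2 were used, although the gene identifiers are human. Which counting tool, strand setting and human build were used is not stated in the labels or headers (not given in the sources used here), so genes that share reads with others are uncertain.

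After rounding to whole numbers, expected counts went into edgeR 4.0.16 (R 4.3.3): filterByExpr (16537 genes kept), TMM scaling, a robust quasi-likelihood fit with 1 mean per group over all 12 libraries, two-sided contrasts, and Benjamini-Hochberg adjustment with a threshold of 0.05. Standard errors come from the F statistic. The scripts were tested on simulated data. The alternatives were DESeq2 1.42.0 and its size factors, limma 3.58.1 (voom, and log2(TPM + 0.5)), library totals alone, 2 other filters and each line fitted alone. Others were a replicate block, GC and length offsets (splines with 5 degrees of freedom), both together and leaving out each library. These make 23, or 22 for the difference between the lines. A threshold of 0.01 was applied besides and is not among them. Median transcript GC content and coordinates came from GENCODE 29 on GRCh38, which held 99.54% of the identifiers. The 10 genes are all named, and other lists name at most 4 called genes per line, those with the largest absolute log2 fold change and a mean of at least 1 CPM. A gene that this rule names is not reported here. The 10 genes, lists and settings were chosen with earlier results of these data known.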

Additional observations from a re-analysis of the deposited data

Results flagged for a closer look

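The knockout effect differed between the lines, by the interaction test of the edgeR quasi-likelihood fit, for 8 of the 10 genes, where 61.6% of all genes tested were called. On the log2 scale, the effect in HCC-LM3 less that in Huh-7 was 2.92 for MCM10, which was lower in 3 of 3 KO libraries than in every WT library in both lines. It was 1.88 for MCM6, 1.59 for MCM3, 1.58 for MCM4 and 1.34 for CDC6, whose Huh-7 KO libraries all lay below the Huh-7 WT libraries. Over all genes tested the median of this difference was 0.39. MCM2 at 0.49 and MCM5 at 0.42 lay only 0.092 and 0.022 above that. Both genes were higher in the 3 HCC-LM3 KO libraries than in every HCC-LM3 WT library. MCM5 was also higher in the 3 Huh-7 KO libraries than in every Huh-7 WT library on the TMM scale. The difference was -0.49 for CDC45, which was higher in the 3 Huh-7 KO libraries than in every Huh-7 WT library on that scale. Of all genes tested, 20.5% were separate as higher and 18.2% as lower in HCC-LM3 KO, and 32.3% and 44.2% in Huh-7 KO. With GC and length offsets CDC6 was -0.14, MCM2 0.21 and MCM5 0.14, and with DESeq2 size factors MCM2 was 0.071 and MCM5 0.00019, none of them called. With library totals alone and in TPM, CDC45 was 0.47 and 0.80, called above 0 in both. The lines differ in these libraries also in gene length and GC make-up, with the values given with the results, and the part of that in these differences was not tested beyond the GC and length adjustment.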

How the results depend on the processing

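For the 10 genes in 4 comparisons, the values of the alternatives were counted together with the main fit read at a threshold of 0.01. Of these, 835 kept their direction and their side of the threshold, 47 lost the call, 18 gained one and 50 changed sign. All genes called in HCC-LM3, 4440 in the TMM fit, were 2904 with GC and length offsets, 2612 with the replicate block and offsets together, 2912 in log2(TPM + 0.5), 2622 at a threshold of 0.01 and 2743 to 6136 on leaving out 1 library. In HCC-LM3, 2 of the 10 genes were called higher with offsets, with or without the block, and 2 to 4 on leaving out 1 library. There, 2 were called lower with library totals alone, limma-voom and each line alone, and 0 to 2 on leaving out 1 library. In Huh-7, 0 were called higher and 10 lower with library totals alone and in TPM. With the block and offsets together, 3 were called higher and 4 lower in Huh-7. Between the wild-type lines, 2 were called lower in TPM. For the difference between the lines, 4 were called above 0 with offsets, with or without the block; 2 were called below 0 with DESeq2 size factors, the DESeq2 Wald test, limma-voom, the 1 CPM filter and offsets with or without the block, 0 with library totals alone and in TPM, and 1 to 2 on leaving out 1 library.

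These log2 fold changes changed sign. In HCC-LM3, MCM3, MCM4 and CDC45 were -0.045, -0.050 and -0.067 with library totals alone and -0.099, -0.24 and -0.11 in TPM, and MCM6 was 0.15 with offsets and 0.15 with the block and offsets. In Huh-7, MCM2 was 0.30 with DESeq2 size factors and the Wald test, called higher in both. MCM5, MCM7, CDT1 and CDC45 there were -0.89, -0.50, -0.61 and -0.54 with library totals alone and -1.51, -1.03, -1.05 and -0.92 in TPM, and CDC6 was 0.076 with offsets, with or without the block. Between the wild-type lines, MCM2 was 0.33 with library totals alone, 0.0024 with no filter, 0.18 with offsets with or without the block, 0.65 in TPM and -0.14 to 0.025 on leaving out 1 library. MCM10 was 0.11 with library totals alone and 0.30 in TPM. CDC45 was 0.41 with library totals alone, 0.078 with no filter, 0.019 with each line alone, 0.064 with offsets, 0.065 with the block and offsets, 0.76 in TPM and -0.073 to 0.077 on leaving out 1 library. For the difference between the lines, MCM7 was 0.66 with library totals alone and 1.16 in TPM, CDC45 0.47 and 0.80, CDC6 -0.14 with offsets and -0.15 with the block and offsets, and CDT1 -0.26 with DESeq2 size factors and the Wald test. The cause of these changes was not tested.

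No shared effect of the replicate number was seen: same-numbered KO and WT deviations correlated at -0.11 to 0.08 in HCC-LM3 and -0.04 to 0.01 in Huh-7. With 3 such pairs per line, these values cannot show that the samples were unpaired. With a replicate block 4261 genes were called in HCC-LM3, 12281 in Huh-7, 10048 for the difference between the lines and 13593 between the wild-type lines, and the 10 genes kept their counts of calls. Depth limits MCM10 in Huh-7 KO, with 13 to 15 counts per library. No share of the MCM2 to MCM7 sum changed direction on leaving out 1 library or when shares were taken of summed counts. The MCM5 share of summed counts overlapped between Huh-7 KO and Huh-7 WT.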

Other observations

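The deposited TPM of MCM4 did not follow its counts in Huh-7 KO. The 3 libraries had 296, 244 and 306 counts and 3.72, 7.91 and 5.89 TPM, so the library with the fewest counts had the highest TPM. The share of MCM4 in the summed TPM there, 1.84 ± 0.676% (SD, n = 3), carries that spread. In HCC-LM3, MCM4 had 6644, 5071 and 6102 counts with 131, 101 and 97.6 TPM in KO libraries, and 5283, 6814 and 5538 counts with 102, 145 and 143 TPM in WT libraries.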
